A study of Drosophila melanogaster with 2 samples.

Results

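The regions described here are the candidate binding regions of the MADF-BESS protein hng1 that lie next to the centromeres of Drosophila melanogaster chromosomes. They were taken by position alone, as pooled candidates whose summit, on assembly dm6, lay above 22000000 on 2L, above 22900000 on 3L, below 4200000 on 3R or above 22300000 on X. Of 30000 pooled candidates, 24373 lay on these 4 arms, and 281 of those lay inside the intervals. The other 24092 candidates of the same arms are the comparison, and 2R, which the position rule does not name, was not analysed here. The regions come from a transcription factor chromatin immunoprecipitation (ChIP-seq) experiment on whole embryos of 0 to 16 hours, both sexes pooled. All embryos came from 1 transgenic line in which hng1 (CG9437) is fused at its C terminus to green fluorescent protein, and the 2 biological replicates form the single group. The binding is therefore that of a tagged protein over all cell types of the embryo, without an untagged or untreated group of samples. A free-text label calls the samples input controls, while the assay and antibody labels and the output types describe a ChIP.

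Pericentric heterochromatin is the compact, repeat-rich chromatin that flanks centromeres. It carries methylated histone H3 lysine 9 bound by HP1a, and much of it consists of transposable elements and satellite DNA. It also holds essential genes, among them light, concertina and ribosomal protein genes, many of which need the heterochromatic surroundings for normal expression. MADF-BESS proteins such as Adf1 bind DNA through the MADF domain and contact other proteins through the BESS motif.

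Taken as a whole, the intervals were richer in repeats than the rest of the arms. Annotated transposable elements covered 15.3% of the 12.2 Mb inside the intervals and 3.98% of the 95.1 Mb outside. Lower-case bases, the masked repeats of the reference, made up 40.3% and 17.5%. Of all 50-base words that start inside the intervals, 52.5% occur more than once in the reference, against 5.24% outside. Protein-coding genes numbered 131 inside (10.8 per Mb) and 10882 outside (114.5 per Mb). The repeat content was not even along the intervals. The first 500 kb inside held 159 of the 281 candidates and 18 of the 24 final peaks. Pooled over the 4 arms, 29.8% of words repeat there, against 30.0% in the last 500 kb outside. The arms were not separated here, and both values include part of an X stretch where 75.2% of words repeat. Histone marks were not measured here, so the name pericentric heterochromatin rests on position.

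The following windows of 50 bases to each side of the summit show the strongest peak of the final list on each arm whose window holds no annotated untranslated region, and the strongest candidate in a transposable element. They are printed from the plus strand of the RefSeq sequence of dm6, and capitals mark ACGTAA or its reverse complement TTACGT, a word chosen with earlier results of these data known.
beta-Man, chr3R:4197082-4197182: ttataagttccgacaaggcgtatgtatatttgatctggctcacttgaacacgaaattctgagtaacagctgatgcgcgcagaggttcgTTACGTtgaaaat
Spf30, chr3L:23714898-23714998: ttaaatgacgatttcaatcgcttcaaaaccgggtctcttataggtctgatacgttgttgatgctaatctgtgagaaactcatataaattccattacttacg
lncRNA:CR43493, chrX:22491176-22491276: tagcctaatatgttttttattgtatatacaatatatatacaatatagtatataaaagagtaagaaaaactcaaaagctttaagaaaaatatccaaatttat
Ir40a, chr2L:22190486-22190586: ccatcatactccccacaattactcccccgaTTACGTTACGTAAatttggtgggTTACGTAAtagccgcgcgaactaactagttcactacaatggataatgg
INE-1 element near CR33294, chr3R:4181131-4181231: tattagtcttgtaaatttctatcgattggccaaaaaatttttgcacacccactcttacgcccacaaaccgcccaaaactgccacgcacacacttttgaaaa
The window in Ir40a held 5 copies of the word, counted on both strands with overlap, and that at beta-Man 1. The windows at Spf30 and lncRNA:CR43493 and the one in the transposable element held none. G+C ranged from 17.8% at lncRNA:CR43493 to 44.6% in Ir40a.

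Candidates inside the intervals were sparse and mostly weak. Their density was 23.1 per Mb, against 253.4 per Mb outside. Counted per Mb of sequence whose 50-base words occur once, the densities were 49.4 and 267.5. The authors' signal value, used here only to rank regions within a list, ran inside the intervals from 38.0 to 2077 with a median of 58.0 and quartiles of 44.7 and 88.4. Outside, the median was 66.6, the quartiles were 47.8 and 124.4, and the highest value was 19060. Signals above 1000 were found at 2 regions inside (0.712%) and at 312 outside (1.30%).

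A smaller share of candidates reached the final list, which is the set of peaks the authors kept by irreproducible discovery rate, and which equals the 6091 strongest pooled candidates. Over all candidates of the 4 arms, 20.3% were final. Inside the intervals 24 of 281 were (8.54%, exact Clopper-Pearson 95% interval 5.55 to 12.4), and outside 4920 of 24092 (20.4%, 19.9 to 20.9). This is an odds ratio of 0.364, with a Woolf 95% interval of 0.239 to 0.554. The two-sided p of Fisher's exact test, adjusted over the 7 shares compared, was 2.5e-07. Such a test counts regions, which are not replicates. The share was lower inside on each arm, at 6.41% on 2L, 10.1% on 3L, 10.5% on 3R and 7.89% on X, against 19.6% to 21.2% on the rest of the same arms. The number on 3R is small, with 4 final peaks among 38 candidates. The ratio depended on where the boundary lay. With every boundary 300 kb nearer the centromere it was 0.211 (8 of 156 final), and with every boundary 300 kb further out it was 0.603 (62 of 463), both past the threshold. With 1 candidate kept for each nearest gene, the strongest, a choice made after seeing the data, it was 0.241 (14.3% against 40.9%). Final status is a cut on the same signal, so keeping the strongest raises the share on both sides, and this ratio is no independent check.

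Each replicate showed the same difference in its own list. For this, the 6091 strongest candidates of a replicate stood in for the final list. In replicate 1 they included 32 of 361 candidates inside the intervals (8.86%) and 20.4% of those outside. In replicate 2 they included 18 of 203 (8.87%) and 20.4%. The shares of strong candidates thus differed little between replicates, while replicate 1 listed more candidates inside the intervals than replicate 2.

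**Figure D1:**
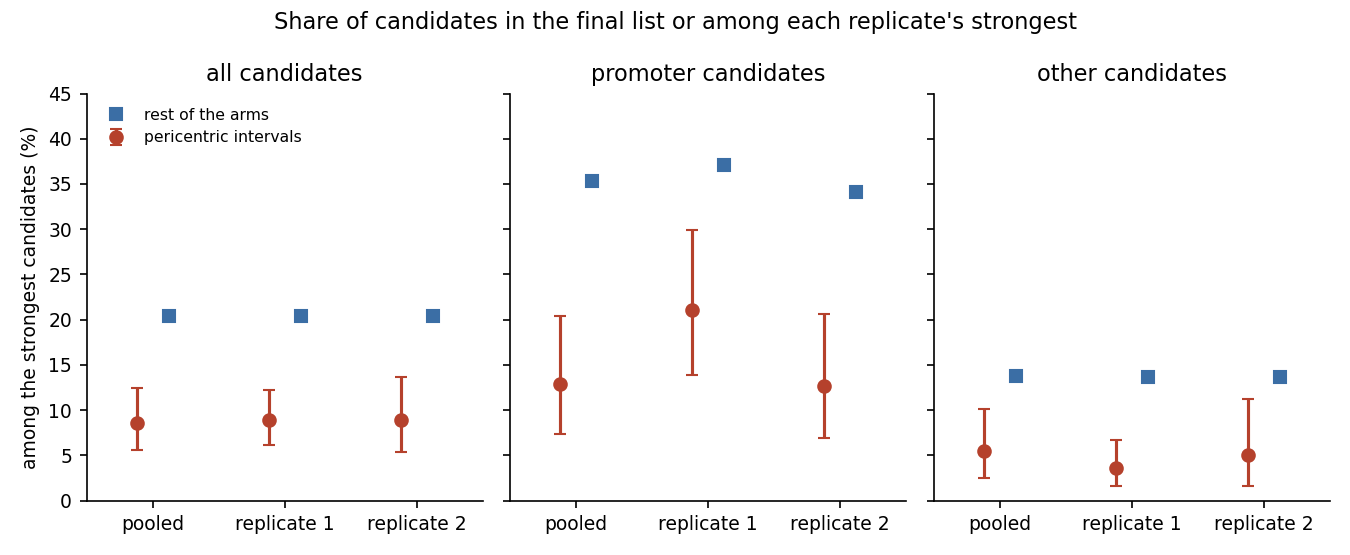
Share of candidates (y axis, %) in the final list (pooled) or among the 6091 strongest of each replicate's own list, for all, promoter and other candidates. Circles are the pericentric intervals with exact 95% intervals and squares the rest of the 4 arms; the circle lies below the square in every panel and list, for example 8.54% against 20.4% for all pooled candidates.

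Promoters made up a larger share of the candidates inside the intervals in the pooled list. A promoter candidate is one with its summit within 500 bp of a transcription start site (TSS) of any gene other than a transposable element. Inside the intervals 116 of 281 candidates were of this kind (41.3%, 35.5 to 47.3), and outside 7398 of 24092 (30.7%, 30.1 to 31.3). The odds ratio of 1.59 (1.25 to 2.01) had an adjusted p of 0.00035 by the exact test. This call did not hold in replicate 1 alone (30.2% against 28.8%, exact test, adjusted p = 0.56) or with 1 candidate kept for each nearest gene (54.9% against 51.4%, exact test, adjusted p = 0.43). In replicate 2 alone the shares were 50.7% and 33.0%. Of the 116, 94 had a protein-coding gene as the nearest TSS (81.0%, against 90.0% outside). Another 18 had a noncoding RNA gene of the annotation (15.5%, against 8.81% outside). The summits near protein-coding genes had a median position of -90 bp from the TSS (negative is upstream), and 72 of 94 (76.6%) lay upstream. Outside, the median was -65 bp and 64.1% lay upstream.

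Within promoters the final share was lower too. Over the 4 arms, 35% of promoter candidates were final. Inside the intervals 15 of 116 were (12.9%, 7.42 to 20.4), and outside 2615 of 7398 (35.3%, 34.3 to 36.5). The odds ratio was 0.272, between 0.158 and 0.468, and its adjusted p was 2.5e-07. It was 0.453 in replicate 1 alone (23 of 109) and 0.555 with the boundaries further out (43 of 185), both past the threshold. The median signal of promoter candidates was 71.9 inside and 98.1 outside. Counted by gene, 77 of 131 protein-coding genes inside the intervals had a candidate at a TSS (58.8%), and 5469 of 10882 outside did (50.3%). A final peak was present at 14 genes inside (10.7%) and at 2780 outside (25.5%). The differences by gene were not tested.

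Away from promoters the difference had the same direction. Of the non-promoter candidates of the 4 arms, 13.7% were final. Inside the intervals the number was 9 of 165 (5.45%, 2.52 to 10.1), and outside 2305 of 16694 (13.8%, 13.3 to 14.3). The odds ratio was 0.360, between 0.184 and 0.706, with an exact adjusted p of 0.001. Introns held 81 candidates inside the intervals, in 30 host genes, with 7 final (8.64%), while 15.4% of intronic candidates outside were final. Intergenic sequence held 62 candidates and no final peak. A count of 0 was given the limit of 3 counts of the total, which here allows a share of up to 4.84%. Outside, 12.1% of intergenic candidates were final. The ratio was 0.142 with the boundaries nearer the centromere (2 of 90), 0.233 in replicate 1 alone (9 of 252), and 0.0961 when only the 3045 strongest final peaks counted (1 of 165).

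**Figure D2:**
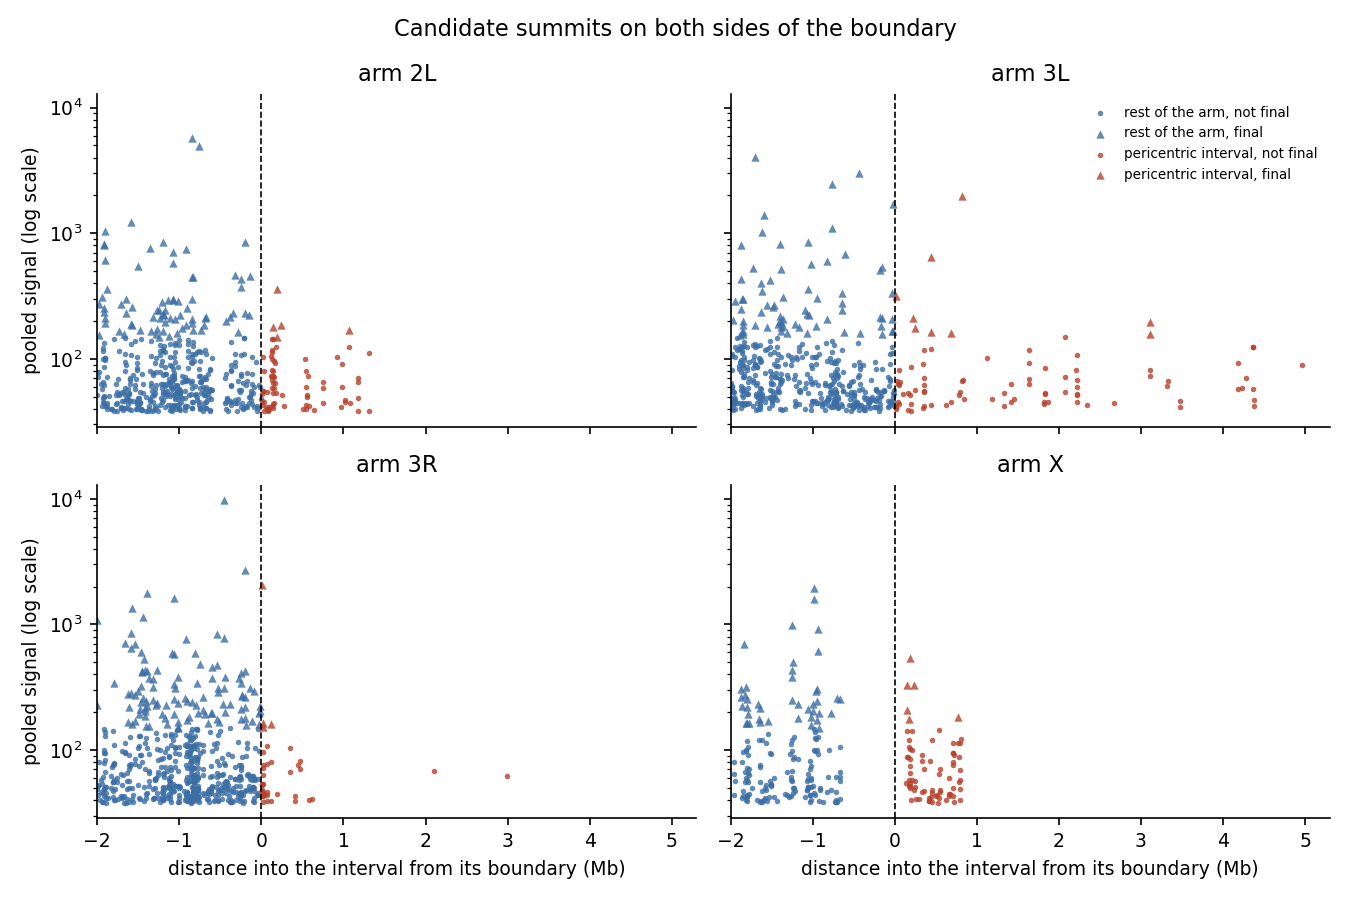
Pooled signal (y axis, log scale) of candidate summits against distance from the interval boundary (x axis, Mb, positive towards the centromere) on the 4 arms. Triangles are final peaks; inside the intervals (red) 2 summits exceed a signal of 1000, and X has no candidate for 809 kb around the boundary.

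Density fell with distance into the intervals. In strips of 500 kb taken from all 4 boundaries it was 146.5 candidates per Mb in the last strip outside, 79.5 in the first strip inside, 31.0 in the next and 10.3 in the one after. The 8.17 Mb more than 1000 kb inside held 60 candidates, 3 of them final. The strips do not hold the same arms throughout. The intervals of 2L and X are 1.51 and 1.24 Mb long, so beyond 2000 kb only 3L and 3R remain. Over their whole intervals, 3L and 3R held 17.1 and 9.05 candidates per Mb, and 2L and X 51.5 and 61.2. Pooled over the arms, the share of 50-base words that repeat was alike in the strips on either side of the boundary, as given above. On X, the last strip outside lay wholly in an 809 kb stretch without a pooled candidate, where 75.2% of words repeat. The pooled match therefore need not hold on each arm. Beyond 2000 kb the share was 60.3%, and its part in the density was not tested. Among protein-coding genes, 39 of 62 in the first strip inside had a candidate at a TSS and 10 a final peak (16.1%). In the next strip 23 of 40 had a candidate and 2 a final peak (5%). The last strip outside, with the X stretch that holds no pooled candidate, had a candidate at 75 of 203 genes (36.95%) and a final peak at 39 (19.2%). In the strips from 500 to 2000 kb outside, the share of genes with a candidate was 42.5% to 53.8%. On 2L, a stretch of 161300 bp without a pooled candidate crossed the point 500 kb outside. It lay partly in the last strip outside and partly in the strip with 42.5%. Genes in the empty X and 2L stretches were not set apart. The higher gene shares inside therefore do not show that other genes just outside had candidates less often.

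**Figure D3:**
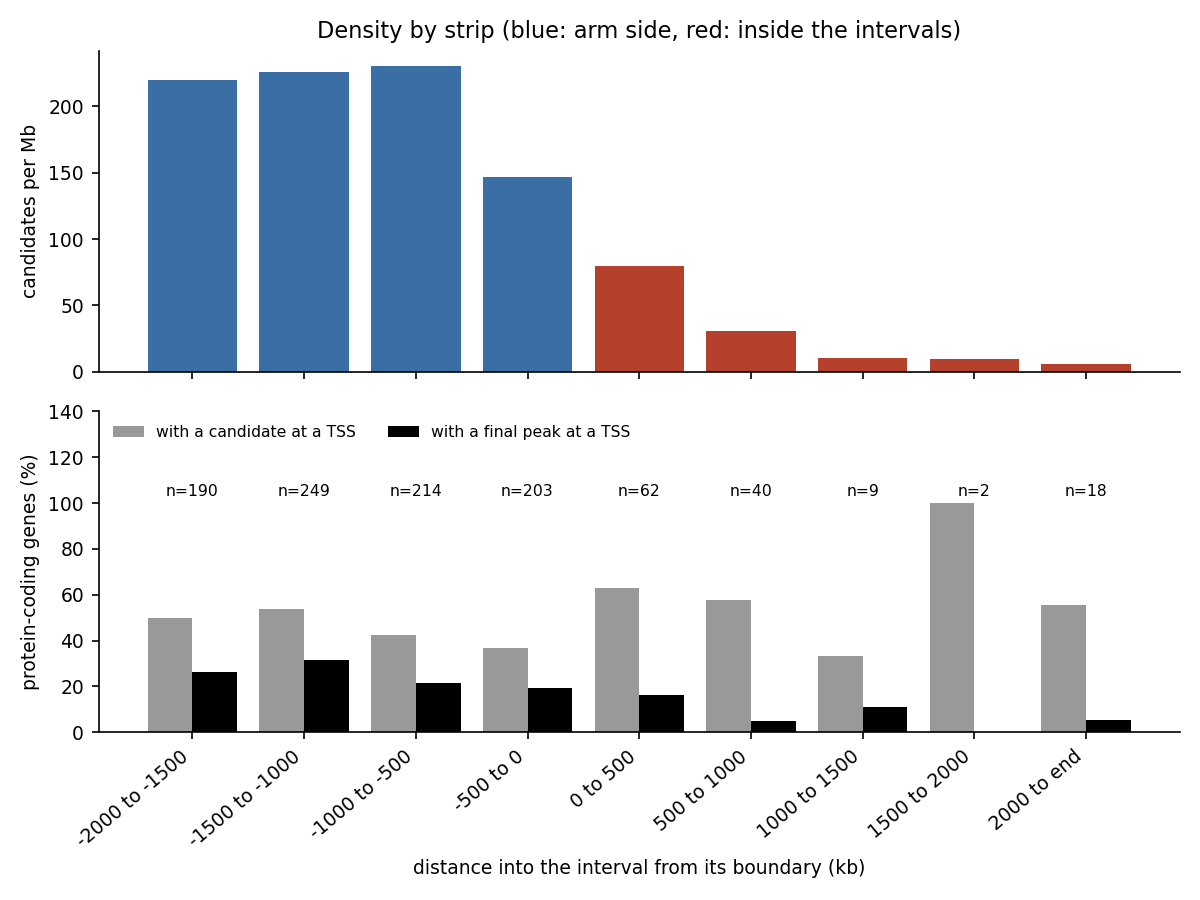
Candidates per Mb (upper panel) and share of protein-coding genes with a candidate or final peak at a TSS (lower panel, %, n genes above the bars) in strips by distance from the boundary (x axis, kb). Density drops from 146.5 to 5.92 per Mb from the last strip outside to the innermost one. The share of genes with a candidate is 36.95% in the last strip outside, and 62.9% and 57.5% in the first strips inside.

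The strongest peak lay close to a boundary. On 3R the candidate just inside, at beta-Man, lay 2868 bp from the boundary with a signal of 2077, and the one just outside, at CG14636, 14261 bp away with 223.0. On 2L the candidates just inside and outside had 52.6 and 47.9, at 2516 and 1894 bp. On 3L they had 42.4 and 52.2, at 7142 and 2766 bp. On X they had 54.3 and 40.8, at 143511 and 665401 bp.

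The final peaks inside the intervals fell in 23 listed regions nearest to 19 genes. Listed regions can overlap, as do those at wap and those in Ir40a. The strongest, at beta-Man, which encodes the lysosomal enzyme beta-mannosidase, had its summit on 3R at 4197132, 74 bp upstream of the TSS. Its pooled signal was 2077 (rank 143), with 1193 in the list of replicate 1 and 896.7 in that of replicate 2. Spf30, a spliceosome component gene, had 1981 pooled (rank 149), 1306 in replicate 1 and 694 in replicate 2, with the summit on 3L at 23714948. It lay 814948 bp inside the boundary. Both summits were found in both replicates, and the next strongest candidate had 641 in the pooled list.

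The promoter of alpha-Cat, the alpha-catenin gene that links cadherins to actin, had 641 pooled, 416 in replicate 1 and 225 in replicate 2, on 3L at 23338190. A second summit of the same region, at 23338390, had 162. On X, the summit at 22491226 had 543, 315 and 245 in the same order. Its nearest TSS is that of lncRNA:CR43493, and a TSS of l(1)G0196 also lies within 500 bp. The promoter of wap (wings apart) had a summit of 331 pooled at 198 bp downstream of its TSS. A summit 7 bp upstream of that TSS, which is also within 500 bp of the ubiquitin protease gene Usp2, had 207. S6kII, a ribosomal S6 kinase gene, had 329 on X at 22529832, with 184 and 147 in replicates 1 and 2. These peaks all had a summit within 100 bp in both replicates.

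The remaining final promoter peaks, at other genes, ran from 315 (rank 2324) to 157 (rank 5728). They were CG12768 (315), CG33217 (211), Nubpl, whose human counterpart assembles respiratory complex I (185), CG17167 (183), Vps11, a subunit of the endosomal tethering complexes (177), the splicing factor gene Spf45 (168) and l(3)80Fg (157). Of the 24 final peaks, 14 had a signal under 200 (58.3%), against 29.8% of final peaks outside. Vps11 differed most between the replicate lists, with 124 in replicate 1 and 23.8 in replicate 2. Of the final promoter peaks, l(3)80Fg and Spf45 lay deepest, 3114129 bp and 1068537 bp inside the boundary. Each had a summit within 100 bp in 1 replicate only. A final peak in an intron of l(3)80Fg, 3112886 bp inside, had one in both replicates.

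Outside promoters the strongest peak was the one in an intron of Ir40a, an ionotropic receptor gene of humidity sensing, on 2L at 22190536. It had 358.0 pooled, 204 in replicate 1 and 147 in replicate 2, and it is the window with 5 copies of the word shown above. A second summit 209 bp away had 150. Next came summits in an intron of l(3)80Fg (197), in a coding exon nearest to dunk, a gene of embryonic cellularization (179), in an intron of CG12576 (178) and in the 5′ untranslated region of CG12581 (165). Weaker ones lay in introns of CG42402 (161), of AGO3, the Argonaute of the piRNA pathway (161), and of CG12581 (152). The AGO3 summit lay 33524 bp downstream of the nearest AGO3 TSS, in a gene of 135048 bp.

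**Figure D4:**
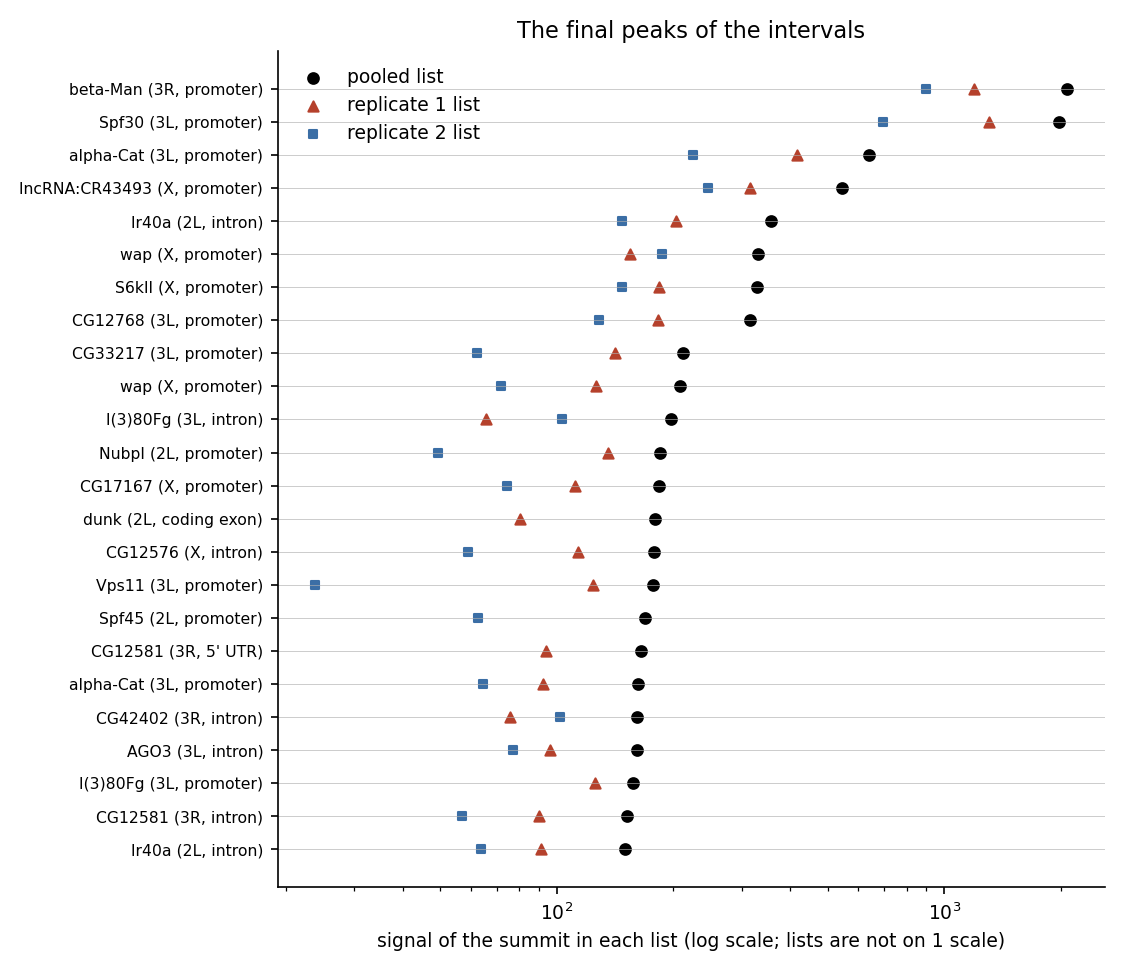
Signal (x axis, log scale) of the 24 final peaks inside the intervals in the pooled list and in each replicate's list, where a summit lay within 100 bp; rows give nearest gene, arm and class. beta-Man (2077) and Spf30 (1981) stand apart from the rest, which run from 150 to 641 in the pooled list.

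Genes known from pericentric heterochromatin had candidates but no final peak at a TSS. The list held 24 symbols, of which 20 matched the name of a gene on the 4 arms and 18 had a TSS inside the intervals. Of these 18, 12 had a candidate at a TSS, where 77 of all 131 protein-coding genes inside the intervals (58.8%) had one. A final peak was at 0 of 18, which by counting alone allows a share of up to 16.7%. Of all protein-coding genes inside the intervals, 10.7% had one, so these counts set the list apart in neither respect. The genes stnA and stnB were counted separately but share 1 candidate. RpL15, a cytosolic ribosomal protein gene, had 124 (rank 7470). su(f), a subunit of the mRNA cleavage machinery, had 113. light (lt), the Vps41 gene, had 102.5 (rank 9223), with 64.7 in replicate 1 and 28.8 in replicate 2. RpL5 had 99.4, stnA and stnB, which share a transcript and regulate endocytosis at synapses, 94.6, the G protein gene concertina (cta) 91.0 and the histone H3 lysine 4 methyltransferase gene Set1 81.8. The cohesin gene vtd (58.3), Dbp80 (47.2), scro (43.7) and Alg-2 (40.2) were weaker. The symbol Parp matched no name and is not in these counts, although a gene named Parp1 on 3R had a promoter candidate of 40.4, not final. AGO3, Snap25, nvd, spok, Myo81F and Pzl had no candidate at a TSS. The first of these had 3 candidates within the gene, 1 of them final, Snap25 had 3 and Myo81F, which spans 1965857 bp, had 2.

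Among promoter candidates outside the final list, the highest signals were at lncRNA:CR46483 (148), mir-2491 (144), the cyclin gene CycK (143) and CG14621 (142). Further down, the mitochondrial ribosomal protein gene mRpS5 had 118 (rank 7871), the hexosamine synthesis gene Gfat1 107, the Mediator gene MED21 107 and tio (tiptop), a zinc finger gene, 104 (rank 9068). These names were chosen after their values were seen. The lowest final peak inside the intervals had 150.

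A larger share of candidates had their summit in a transposable element inside the intervals than outside. Summits in an annotated element numbered 21 of 281 inside (7.47%, 4.69 to 11.2) and 115 of 24092 outside (0.477%, 0.394 to 0.573). The odds ratio was 16.8, between 10.4 and 27.2, with an adjusted p of 4.9e-17. The elements cover 15.3% and 3.98% of the respective sequence, so that the test compares regions of different element content. When any overlap of the whole candidate region counted, the count inside was 46 of 281 (16.4%), against 1.51% outside, an odds ratio of 12.8. In replicate 1 alone the odds ratio was 25.4 (37 of 361). None of the 21 was final, which by counting alone allows a share of up to 14.3%, and 18 of the 115 outside were. Their signals ran from 38.0 to 96.9 with a median of 44.3, and 18 of 21 ranked beyond 15000. Only 1 had a summit within 100 bp in both replicates, 11 had one in replicate 1 and 5 in replicate 2. The strongest was the INE-1 copy shown above (96.9), in an intron on 3R. It was followed by a copy of the 1360 element nearest to CG6675 (73.4), a G5 element in nAChRalpha4 (70.0), an INE-1 copy in an intron of Cp110 nearest to l(1)G0196 (66.0) and an S2 element at the promoter of CG14618 (58.1). INE-1 copies made up 6 of the 21 and copies of 1360 were 3.

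Most candidates nevertheless sat on sequence that occurs once. The 50 bases centred on the summit were repeated in the reference for 4 of 281 candidates inside (1.42%, 0.389 to 3.60) and 28 of 24092 outside (0.116%, 0.0772 to 0.168). The odds ratio was 12.4, between 4.32 and 35.6, and the exact adjusted p was 0.00068. With windows of 100 bases the call was lost (1 of 281, odds ratio 5.73, exact test, adjusted p = 0.17). In replicate 2 alone 0 of 203 candidates inside had repeated bases (exact test, adjusted p = 1), and the odds ratio was 7.43 with the boundaries further out. By contrast, 52.5% of the 50-base words of the intervals repeat. Restricting both sides to summits whose 100 bases occur once left the final share at 24 of 280 (8.57%) against 20.4%. That step removed only 1 candidate inside, so it could hardly change the share and does not test a part of repeats in it.

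The replicates were also compared summit by summit. The final list was itself made from these replicates, so recovery among final peaks is not independent of how they were chosen. Among final peaks, 20 of 24 inside (83.3%, 62.6 to 95.3) and 4542 of 4920 outside (92.3%, 91.5 to 93.1) had a summit within 100 bp in both replicates, a difference that did not pass the threshold (odds ratio 0.416 between 0.142 and 1.22, adjusted p = 0.11 by the exact test). It passed with the boundaries further out (52 of 62, exact test, adjusted p = 0.026), and all 24 had partners within 200 bp. Among pooled candidates ranked 6092 to 15000 the shares were 48 of 92 (52.2%) inside and 66.7% outside. Among those ranked 15001 to 30000 they were 19 of 165 (11.5%) and 14.8%. By replicate, 70.1% of all candidates inside and 70.5% outside were found in replicate 1, against 45.9% and 65.4% in replicate 2. Over the 20 final peaks inside with partners in both lists, the signal in replicate 1 divided by that in replicate 2 had a median of 1.43 (0.636 to 5.20), against 1.17 for the 4542 outside, and the lists need not share a scale. The shares by rank and by replicate and these ratios were not tested.

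The word ACGTAA was present at summits inside the intervals and in the rest of the arms at low shares. It was in 23 of 281 windows (8.19%) and in 5.20% outside, counted on both strands as a description. At promoter candidates the shares were 9.48% and 6.53%, and at final peaks 5 of 24 (20.8%) and 9.80%. The 5 final windows were at beta-Man, alpha-Cat, wap, in Ir40a and in CG12581. Of promoter candidates with the word, 3 of 11 inside (27.3%) and 57.3% outside were final. Of those without it, 12 of 105 (11.4%) and 33.8% were. The final share inside was the lower one with and without the word, which was not tested. Windows with 3 or more copies numbered 2 inside, in Ir40a and in an intron nearest to CG17600 with 4 copies and a signal of 142, and 39 outside.

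Other words gave small counts. TATCGATA, the Dref element, was found in 2 of 281 windows (0.712%) and 0.975% outside. At promoter candidates it was in 1 of 116 (0.862%) and 2.64%. CGATA was in 13.5% and 13.2% and GAGAG in 12.8% and 11.4%. Tandem pairs of the satellite units AAGAG and AACAC were in none of the 281 windows, which by counting alone allows a share of up to 1.07%, and AATAT in tandem was in 2. The median G+C was 36.6% inside and 38.6% outside. At non-final promoter candidates it was 35.6% against 41.6%.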

How the data were processed

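Peak lists of 2 biological replicates of 1 group were used. The authors deposited lists of 30000 candidate regions for each replicate and for both pooled, and 6091 final peaks. Per the file manifests, each candidate list derives from replicate alignments and 1 control alignment, and the assembly is dm6. For the aligner, caller and IDR threshold, the files and labels give no name or value. The authors' signal value per peak has no stated scale and was compared only within a list. The deposited −log10 q values were not used. Read depth is unknown, so precision is that of counting regions. Regions are not replicates and share libraries, so intervals and p-values cover counting error only.

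Summits were placed on Ensembl release 115 and the RefSeq sequence of the same assembly with Python 3.11.15, pandas 2.3.3, numpy 2.4.6, scipy 1.17.1 (tests) and matplotlib 3.10.9. Fisher's exact test, two-sided, compared shares, with Benjamini-Hochberg adjustment over 7 shares and a threshold of 0.05, and the test was tested on simulated data. The genes named are all final peaks (at most 25), the strongest in each arm and outside promoters, the 5 strongest in transposable elements and a list of 24 genes. Names are those of the nearest TSS. The regions, lists and words were chosen with earlier results of these data known.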

Additional observations from a re-analysis of the deposited data

How the results depend on the processing

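Across 82 alternatives (arms left out in turn, boundaries moved by 300 kb, the 3045 strongest final peaks, each replicate alone, promoter windows of 250 and 1000 bp, protein-coding genes only, other overlaps, word lengths and partner distances), 77 kept both the direction and the side of the threshold, 4 lost the call and 1 gained it. The restriction to sequence that occurs once and to the strongest candidate for each nearest gene was chosen after seeing the data. The former removed only 1 candidate inside the intervals, so its results, all among the 77, could hardly differ. The lower final share passed in every alternative run, with odds ratios from 0.211 to 0.603 over all candidates, 0.183 to 0.555 at promoters and 0.0961 to 0.457 elsewhere. The promoter share gave an odds ratio of 1.07 to 2.09 with 1 replicate left out, losing its call without replicate 2, and 1.15 with 1 candidate for each nearest gene. The repeated sequence share gave 2.07 to 13.5 with 1 replicate left out, where the lower value comes from a count of 0 with a continuity correction, and 5.73 with 100 bases. The share of final peaks found in both replicates passed with the boundaries further out (0.429), where more peaks were tested, and did not pass in the other alternatives (0.250 to 0.846). With 1 replicate left out, the odds ratios were 0.378 to 0.380 for the final share, 0.279 to 0.453 at promoters, 0.233 to 0.333 elsewhere, 15.8 to 25.4 for transposable elements and 0.348 to 0.788 for recovery. The causes of these changes were not tested. Counts inside the intervals are small, and 1 or 2 final peaks decide the shares of single arms. Read depth and control coverage over repeats are unknown. No paired analysis was possible because both samples belong to 1 group.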

Other observations

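Several long genes inside the intervals held groups of weak candidates in their introns. CG42748, a gene of 35001 bp on 2L, held 9 in its introns, with signals from 40.2 to 96.6. lncRNA:CR44997 on X (140359 bp) held 8, the strongest 120.6. nAChRalpha4, a nicotinic acetylcholine receptor subunit gene of 80780 bp on 3L, held 6, the strongest 90.1. None of these was final. By contrast CG12581 on 3R held 5 intronic candidates with 1 final, and both intronic candidates of Ir40a were final. The median length of the host gene was 35000 bp for intronic candidates inside the intervals and 36850 bp outside.

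On X, no pooled candidate lay between 21634599 and 22443511, a stretch of 809 kb across the boundary that holds TSSs of 21 protein-coding genes. Where both neighbouring summits lay outside the intervals, the longest step was 161300 bp. Inside the intervals, longer empty stretches occurred, as on 3R between the candidates at 2096875 and 3587176. In this stretch 75.2% of positions start a 50-base word that repeats in the reference, 25.5% of bases lie in annotated transposable elements and 7.95% are unknown bases. Replicate 1 listed 1 candidate there and replicate 2 listed 0. Whether the repeats set this gap was not tested.

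Chromosome 4, which is largely heterochromatic but gene-rich, had 33 final peaks among 239 candidates (13.8%, exact 95% interval 9.70 to 18.8). The value for the pericentric intervals was 8.54% (5.55 to 12.4), and the difference was not tested.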
